A study of Homo sapiens with 6 samples.

Results

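Kinesins are motor proteins that walk along microtubules. The genes described here are the protein-coding genes with a symbol that begins with KIF or KIFC and a number, plus the light chain genes KLC1, KLC2 and KLC4, 45 genes of the 38126 listed in each library. They were taken by name and not by a measured value, but the name rule and the classes were set with earlier results of these data known. By their known roles 14 were placed with the mitotic kinesins, 18 with the transport kinesins and 13 in a remaining class of cilium, centriole, microtubule growth and non-motile kinesins. KIF2A, which acts on interphase and spindle microtubules, was placed in the remaining class. Of the 45, 39 had a mean of at least 0.1 FPKM (fragments normalised for gene length and library size) in either group and are described with a test. These were 12 mitotic, 17 transport and 10 remaining kinesins.

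The data are RNA-seq libraries of HK-2, a human kidney line that was immortalised from proximal tubule epithelium, in 2 groups. Cells of one group had received phosphoramidon, which blocks neprilysin and related zinc-dependent peptidases, for 24 h (n = 3). The other group was untreated per its treatment label (n = 3). Both groups were grown in serum-free keratinocyte medium with EGF and treated at near confluence. The labels give no dose and do not explain the letters CSE in the titles of the untreated libraries. They also do not say whether replicates were separate cultures, so the spread behind each p-value may be technical only.

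Between 18705342 and 24938257 fragments were recovered per phosphoramidon library and between 23509883 and 24831026 per untreated library, so that 1 fragment on a gene of 1 kb was worth 0.0401 to 0.0535 FPKM. Of 14 proximal tubule markers, 9 were below 0.1 FPKM in both groups, among them the endocytic receptors LRP2 and CUBN, and the transporters SLC22A6 and SLC22A8 were at 0 in all libraries. The renal factor PAX8 was expressed and did not pass the test (70.5 FPKM in phosphoramidon and 63.7 FPKM in untreated cells). Of the 6 proximal tubule markers that were tested, 0 were higher and 2 lower, where 18.0% of all tested genes were lower. These were SLC34A1 (0.0533 FPKM in phosphoramidon and 0.161 FPKM in untreated cells) and GGT1 (0.528 FPKM in phosphoramidon and 0.833 FPKM in untreated cells). The 5 epithelial markers summed to 200 to 215 FPKM in phosphoramidon and 328 to 365 FPKM in untreated libraries. Of them 3 were lower, as were 18.0% of all tested genes: the keratins KRT19 (-1.18 on the log2 scale), KRT8 (-0.57) and KRT18 (-0.53). EPCAM did not pass the test (26.4 FPKM in phosphoramidon and 26.9 FPKM in untreated cells). Nor did CDH1, which leaned the other way (0.501 FPKM in phosphoramidon and 0.391 FPKM in untreated cells). Fibroblast markers summed to 23.5 to 24.9 FPKM in phosphoramidon and 60.9 to 65.7 FPKM in untreated libraries, mostly LUM, with COL3A1 at 0 in every library. Of the 7 fibroblast markers 4 were tested, and all 4 were lower (median log2 fold change -1.29), against the same 18.0%. Of the endothelial, the leukocyte and the podocyte and distal tubule lists, none summed to more than 0.800 FPKM in a phosphoramidon library or 0.874 FPKM in an untreated library. The part of these marker differences in the results was not tested.

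A kinesin motor domain turns ATP hydrolysis into steps along a microtubule or into removal of tubulin from its end. Mitotic kinesins build the spindle, move chromosomes and drive cytokinesis, and their transcripts are known to peak in G2 and M phase. Transport kinesins carry vesicles, organelles and protein complexes in dividing and resting cells alike, commonly through light chains or other cargo adaptors. In the kidney tubule, kinesin-1 and kinesin-2 motors serve membrane traffic and the primary cilium.

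Promoters of genes expressed in G2 and M phase often hold a cell cycle homology region, CHR, with the letters TTTGAA, and CCAAT boxes, which bind NF-Y. The CHR is bound by complexes built on the MuvB core. The sequences below are shown because they let the mitotic class be set beside the transport class by these letters. The letters were not used to choose the genes of either class. The genes shown are a selection made by name. It leaves out KIF2C, without any of the letters, and KIF14, KIF18B, KIFC1 and KIF20B, with TTTGAA after the start. They lie upstream of RefSeq gene starts (GRCh38.p14), read 5′ to 3′ on the strand of the gene, and capitals mark TTTGAA, its variant TTCGAA and CCAAT on either strand (TTCAAA and ATTGG on the opposite one). Runs of 30 bases are given where GENCODE 29 places an exon over more than 30 bases of the 100 before the start.
KIF4A, chrX:70290004-70290103, plus strand: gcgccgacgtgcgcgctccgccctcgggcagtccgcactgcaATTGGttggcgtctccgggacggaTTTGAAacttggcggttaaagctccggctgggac
KIF11, chr10:92593030-92593129, plus strand: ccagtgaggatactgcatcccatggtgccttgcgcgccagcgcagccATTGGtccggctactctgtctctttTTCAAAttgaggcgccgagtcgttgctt
KIF15, chr3:44761747-44761776, plus strand: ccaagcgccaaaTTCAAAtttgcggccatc
KIF23, chr15:69414282-69414311, plus strand: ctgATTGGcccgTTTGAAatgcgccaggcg
KIF18A, chr11:28108157-28108186, minus strand: gctgaggaaagtggcttgggTTTGAAtatt
KIF22, chr16:29790712-29790741, plus strand: ggcaccggggaaTTCGAAtgggagaggcgg
KIF20A, chr5:138179012-138179041, plus strand: acgcggATTGGtagctgcaggcttccctat
KIF5B, chr10:32056426-32056525, minus strand: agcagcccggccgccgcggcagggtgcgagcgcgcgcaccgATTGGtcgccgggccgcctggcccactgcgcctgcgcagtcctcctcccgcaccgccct
KIF1C, chr17:4997850-4997949, plus strand: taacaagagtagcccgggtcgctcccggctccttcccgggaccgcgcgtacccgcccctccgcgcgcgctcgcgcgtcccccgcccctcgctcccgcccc

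Windows from 250 bases before to 50 after the start were searched on both strands, and matches of different motifs can share at most 1 base. TTTGAA occurred in 10 of the 14 mitotic kinesins (71.4%), in 1 of the 12 transport kinesins with a window (8.33%) and in 0 of 9 in the remaining class. That transport kinesin was KIF5B, where the letters began 140 bases before the start, outside the stretch shown. Of all 27305 genes with a window, 18.2% held it. CCAAT occurred in 78.6% of the mitotic windows, 33.3% of the transport windows and 39.7% of all genes. Both CHR letters (TTTGAA or TTCGAA) and CCAAT were found in 10 mitotic kinesins (71.4%) and in 7.85% of all genes. In KIF4A, KIF11, KIF15, KIF23 and KIF18A the TTTGAA letters began 34, 28, 35, 55 and 10 bases before the start, and in KIF14, KIF18B, KIFC1, KIF20B and KIF4B they lay after it. KIF22 had the variant 27 bases before its start, KIF20A had CCAAT alone, and neither KIF2C nor KIF2B had any of the letters. The runs shown leave out CCAAT 45 bases before the start of KIF18A, 66 before that of KIF22 and 67 before that of KIF20A. A match describes the letters only and is no evidence of a bound site.

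Mitotic kinesin transcripts were higher in phosphoramidon-treated cells. Of the 12 tested, 9 were higher and 0 were lower by limma's test on log2(FPKM + 0.1) at a Benjamini-Hochberg adjusted p below 0.05, where 15.7% of all 16145 tested genes were higher and 18.0% lower (33.7% in either direction). Their median log2 fold change was 0.64, against 0.01 over all tested genes. KIF2A, which also acts in the spindle but was placed in the remaining class, had -0.06 (adjusted p = 0.58). In 11 of the 12 the groups did not overlap, with the phosphoramidon libraries above, a pattern found in 31.0% of all tested genes. Summed over the 14 genes, the class reached 206.7 to 225.2 FPKM in phosphoramidon libraries and 126.2 to 137.9 FPKM in untreated libraries. In bulk RNA, more cells in mitosis and more of these transcripts per cell cannot be told apart.

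**Figure D1:**
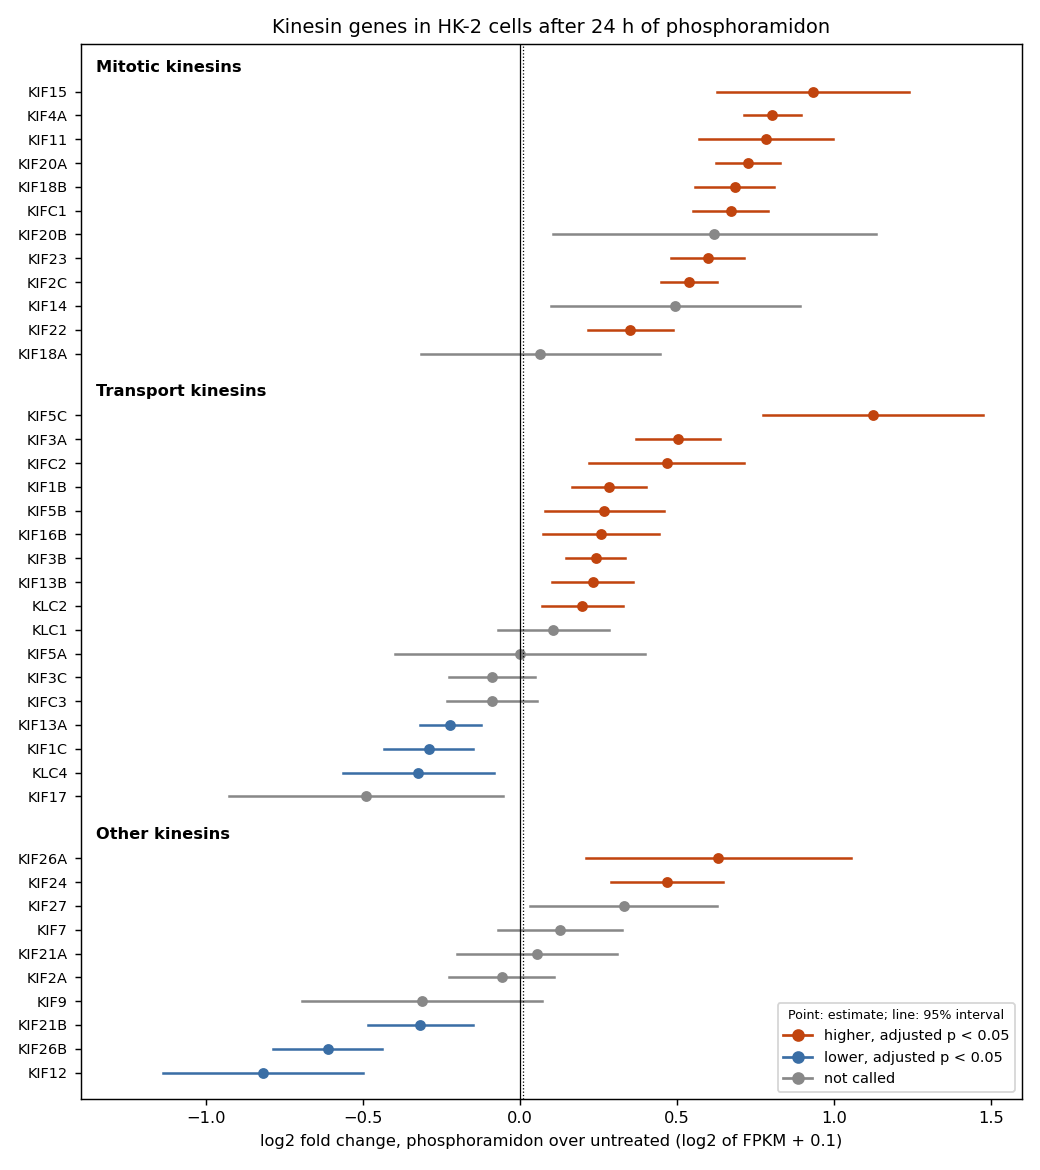
Log2 fold change, phosphoramidon over untreated, of the 39 tested kinesins by class, with points for the estimate, lines for the 95% interval and colour for the call at adjusted p below 0.05. The solid line marks 0 and the dotted line the median of all tested genes (0.01). Mitotic kinesins lie between 0.06 and 0.93 with a median of 0.64, transport kinesins between -0.49 and 1.12 with a median of 0.20, and the remaining kinesins between -0.82 and 0.63 with a median of -0.00.

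Among the motors that set up the spindle, KIF11, KIF15 and KIFC1 were higher. KIF11 (chr10:92593286-92655395), the bipolar kinesin-5 that pushes spindle poles apart, had 32.7, 39.8 and 39.7 FPKM in phosphoramidon libraries, against 18.0, 21.9 and 22.1 FPKM in untreated libraries. It was the most abundant kinesin of treated cells, and its groups did not overlap (log2 fold change 0.78 ± 0.09 SE, adjusted p = 5.63e-04). KIF15 (chr3:44761717-44873376), a kinesin-12 that helps KIF11 keep the spindle bipolar, had 5.27, 6.98 and 6.84 FPKM in phosphoramidon libraries, against 2.56, 3.52 and 3.30 FPKM in untreated libraries. Its groups did not overlap either (0.93 ± 0.13 SE, adjusted p = 0.0013). KIFC1 (chr6:33391536-33409924), a kinesin-14 that walks towards minus ends and gathers spindle poles, had 31.4, 30.2 and 29.3 FPKM in phosphoramidon libraries, against 18.6, 18.7 and 17.0 FPKM in untreated libraries. Each treated library thus lay well above each untreated one (0.67 ± 0.05 SE, adjusted p = 5.62e-05). The processed pseudogene RPL12P1 covers 12.7% of the exon bases of KIFC1 on the opposite strand, at 0.125 FPKM in phosphoramidon and 0.305 FPKM in untreated cells.

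Chromokinesins bind chromosome arms. KIF4A (chrX:70290090-70420832), which acts in chromosome condensation and at the spindle midzone, had 23.7, 23.7 and 23.6 FPKM in phosphoramidon libraries, against 13.1, 12.96 and 12.5 FPKM in untreated libraries. The spread within each group was small beside the gap between them (0.80 ± 0.04 SE, adjusted p = 6.56e-06). KIF4A was the 1 kinesin whose change exceeded 1.5-fold by limma's treat (adjusted p = 0.0343), as did 0.805% of all tested genes, and with any 1 of the 6 libraries left out 0 kinesins passed that test. KIF4B, an intronless copy of KIF4A, had at most 0.0117 FPKM in any library, and how reads that match both genes were counted is not given in the sources used here. KIF22 averaged 9.75 ± 0.298 FPKM in phosphoramidon and 7.26 ± 0.441 FPKM in untreated libraries (SD, n = 3 each), a smaller rise (0.35 ± 0.06 SE, adjusted p = 0.0024). An antisense gene covers 13.01% of its exon bases.

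Kinesins that shorten microtubules or align chromosomes did not move alike. KIF2C (chr1:44739818-44767767), the centromeric depolymerase of the kinesin-13 family, had 32.0, 31.2 and 31.9 FPKM in phosphoramidon libraries, against 21.1, 20.7 and 20.4 FPKM in untreated libraries. The groups did not overlap (0.54 ± 0.04 SE, adjusted p = 4.29e-05). KIF18B (chr17:44924709-44947711), which trims astral microtubules, had 10.7, 11.2 and 10.6 FPKM in phosphoramidon libraries, against 5.99, 6.83 and 6.31 FPKM in untreated libraries. It was higher in each treated library than in any untreated one (0.68 ± 0.06 SE, adjusted p = 6.38e-05). KIF18A (chr11:28020620-28108308), its kinesin-8 relative that dampens chromosome oscillation, had 5.96, 7.94 and 8.74 FPKM in phosphoramidon libraries, against 5.50, 7.50 and 7.54 FPKM in untreated libraries. Its groups overlapped, and replicate 1 was the lowest of both. The difference was 0.06 ± 0.16 SE on the log2 scale (95% interval -0.32 to 0.44, adjusted p = 0.80), and it turned slightly negative without untreated replicate 1 (-0.08), without phosphoramidon replicate 3 (-0.04) and with the GC trend removed (-0.00). KIF2B, a further kinesin-13, was at 0 in all libraries.

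The cytokinesis motors were higher or missed the test. KIF20A (chr5:138178719-138187715), which brings regulators to the central spindle, had 27.1, 26.6 and 25.9 FPKM in phosphoramidon libraries, against 15.6, 15.1 and 15.1 FPKM in untreated libraries (0.73 ± 0.04 SE, adjusted p = 1.95e-05). KIF23 (chr15:69414246-69448427), the motor of centralspindlin, had 12.6, 13.6 and 13.8 FPKM in phosphoramidon libraries, against 8.01, 8.87 and 8.18 FPKM in untreated libraries (0.60 ± 0.05 SE, adjusted p = 7.71e-05). In both genes every treated library lay above every untreated library. KIF20B averaged 11.6 ± 2.62 FPKM in phosphoramidon and 7.20 ± 1.71 FPKM in untreated libraries (SD, n = 3 each), with a log2 fold change of 0.62 ± 0.21 SE and an adjusted p of 0.0680. KIF14 averaged 8.67 ± 1.94 FPKM in phosphoramidon and 5.78 ± 0.903 FPKM in untreated libraries, with a log2 fold change of 0.49 ± 0.17 SE and an adjusted p of 0.0603. In both, replicate 1 was the lowest library of each group, and without phosphoramidon replicate 1 both passed (adjusted p = 0.0446 for KIF20B and 0.0148 for KIF14). KIF14 also passed with the values as deposited (adjusted p = 0.0465), with a filter of 50 fragments (0.0398) and with the GC trend removed (0.0442). The genes BRD8 and CDC23 overlap 3.34% and 1.72% of the exon bases of KIF20A on the opposite strand.

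**Figure D2:**
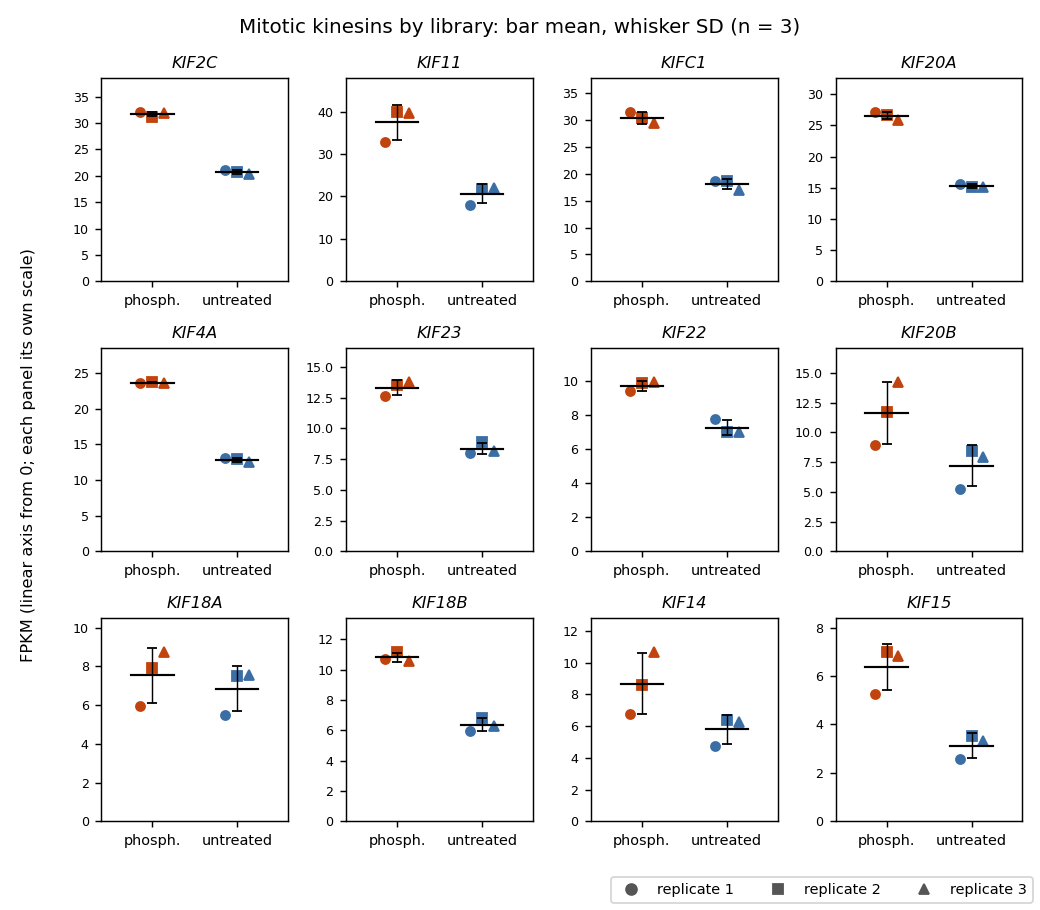
FPKM of the 12 tested mitotic kinesins by library, with phosphoramidon (phosph.) on the left and untreated on the right of each panel, bars for the mean, whiskers for the SD of 3 libraries and symbols for the replicate number. Groups are apart in 11 panels and overlap in KIF18A, and replicate 1 lies low in both groups of KIF11, KIF14, KIF15, KIF18A, KIF20B and KIF23.

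Set beside the promoter letters, 6 of the 9 tested mitotic kinesins with TTTGAA were higher. All 3 tested ones without it (KIF20A, KIF22 and KIF2C) were higher as well. Over all tested genes 15.7% were higher, and the share among all genes with TTTGAA was not computed. The 3 that missed the test, KIF14, KIF18A and KIF20B, held the letters. KIF5B, the transport kinesin with the letters, had a log2 fold change of 0.27, a call that was lost under 5 of 15 alternative settings.

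Of 17 tested transport kinesins, 9 were higher and 3 lower, where 15.7% of all tested genes were higher and 18.0% lower, so the lower share was near that of all genes. Their median log2 fold change was 0.20, against 0.64 for the mitotic kinesins. The groups did not overlap in 14, against 49.7% of all tested genes. In 10 of these the phosphoramidon libraries lay above, a pattern of 31.0% of all tested genes. The class summed to 140.7 to 146.5 FPKM in phosphoramidon libraries and 127.7 to 134.4 FPKM in untreated libraries. Mitotic kinesins accordingly made up 55.1 ± 0.353% of all kinesin FPKM in phosphoramidon and 44.6 ± 0.337% in untreated libraries, and transport kinesins 36.4 ± 0.692% and 43.8 ± 0.923% in the same order (SD, n = 3 each). Without phosphoramidon replicate 2 the number of higher transport kinesins was 5. The number over all tested genes also fell in that setting, to 1756 from 2529 with all libraries.

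Kinesin-1, the main long-range motor, pairs KIF5 heavy chains with light chains that bind cargo. KIF5B, the heavy chain of most tissues, was the most abundant kinesin of untreated cells and the second of treated cells, at 36.0 ± 3.16 FPKM in phosphoramidon and 28.5 ± 3.04 FPKM in untreated libraries (SD, n = 3 each). Its change of 0.27 ± 0.08 SE passed narrowly (adjusted p = 0.0370) and was lost without any of 3 libraries: phosphoramidon replicate 2 (adjusted p = 0.11), phosphoramidon replicate 3 (0.0913) and untreated replicate 1 (0.0774). The KIF5B call was also lost without a filter on low genes (0.135) and with a constant prior (0.0894). KIF5C (chr2:148875250-149026759), best known from neurons, had 0.458, 0.482 and 0.387 FPKM in phosphoramidon libraries, against 0.124, 0.147 and 0.148 FPKM in untreated libraries. Its groups lay far apart at a low level, 79, 111 and 70 fragments in phosphoramidon and 27, 33 and 34 fragments in untreated libraries. The log2 fold change was 1.12 ± 0.15 SE (adjusted p = 8.43e-04), and it depended on the scale at this low level, from 0.32 with a pseudocount of 1 to 1.58 with voom on recovered fragments. KIF5A, the third heavy chain, averaged 0.455 ± 0.0761 FPKM in phosphoramidon and 0.433 ± 0.0688 FPKM in untreated libraries, with an interval of its log2 fold change from -0.40 to 0.40.

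The light chains differed in direction. KLC2 averaged 4.83 ± 0.0782 FPKM in phosphoramidon and 3.99 ± 0.0588 FPKM in untreated libraries (0.20 ± 0.06 SE, adjusted p = 0.0267). That call was lost when any library but untreated replicate 3 was left out (adjusted p from 0.0567 to 0.086) and without a filter on low genes (0.054). KLC4 (chr6:43040777-43075099) had 2.62, 2.11 and 2.69 FPKM in phosphoramidon libraries, against 3.14, 2.82 and 2.91 FPKM in untreated libraries. All 3 treated libraries were below the untreated ones (-0.32 ± 0.11 SE, adjusted p = 0.0434). Leaving out phosphoramidon replicate 2 (adjusted p = 0.122) or any 1 untreated replicate (0.0565 to 0.127) ended that call, as did omitting the TMM factors (0.0899) and removing the GC trend (0.069). The KLC4 call was also lost without a filter on low genes (0.144) and with a constant prior (0.0706). The genes CUL7 and MRPL2, which overlap 5.12% and 5.81% of its exon bases on the opposite strand, averaged 7.06 and 8.15 FPKM in phosphoramidon and 9.73 and 9.75 FPKM in untreated libraries. KLC1 had a log2 fold change of 0.11 (adjusted p = 0.33), and XRCC3 covers 29.9% of its exon bases.

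Kinesin-2 motors run along the cilium and carry endosomes. KIF3A (chr5:132692628-132737638) had 4.99, 5.32 and 5.15 FPKM in phosphoramidon libraries, against 3.31, 3.47 and 3.53 FPKM in untreated libraries (0.50 ± 0.06 SE, adjusted p = 3.71e-04). KIF3B (chr20:32277664-32335011), which forms a dimer with KIF3A, had 17.5, 17.9 and 19.0 FPKM in phosphoramidon libraries, against 14.3, 14.9 and 14.7 FPKM in untreated libraries (0.24 ± 0.04 SE, adjusted p = 0.0026). Neither gene's groups overlapped. KIF3C, the other partner of KIF3A, averaged 13.5 ± 0.830 FPKM in phosphoramidon and 13.7 ± 0.454 FPKM in untreated libraries, with a log2 fold change of -0.09 (95% interval -0.23 to 0.05, adjusted p = 0.28). KIFAP3, the non-motor subunit of the heterotrimer, had 0.10 ± 0.06 SE and missed the test (adjusted p = 0.21). KIF17 (chr1:20664014-20718017), a homodimeric motor of cilia and dendrites, had 0.251, 0.126 and 0.183 FPKM in phosphoramidon libraries, against 0.286, 0.267 and 0.298 FPKM in untreated libraries. These rest on 14 to 21 fragments per treated and 29 to 33 per untreated library. The change of -0.49 ± 0.19 SE missed the test (adjusted p = 0.0803), passed without phosphoramidon replicate 1 (adjusted p = 0.0296) and ran from -0.75 with voom to -0.13 with a pseudocount of 1.

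Kinesin-3 motors of vesicles and endosomes split between the directions. KIF1B (chr1:10210805-10381603), a carrier of mitochondria and synaptic vesicle precursors, had 11.7, 11.8 and 11.3 FPKM in phosphoramidon libraries, against 9.15, 9.49 and 8.58 FPKM in untreated libraries (0.28 ± 0.05 SE, adjusted p = 0.0036). KIF1C (chr17:4997948-5028401), a motor of Golgi-derived and integrin-bearing vesicles, had 17.4, 15.7 and 16.5 FPKM in phosphoramidon libraries, against 20.03, 19.99 and 17.8 FPKM in untreated libraries (-0.29 ± 0.06 SE, adjusted p = 0.0075). KIF1B thus was higher and KIF1C lower in every treated library than in any untreated one. KIF13A (chr6:17759183-17987623), which moves recycling endosomes, had 11.02, 11.3 and 11.4 FPKM in phosphoramidon libraries, against 12.8, 12.5 and 12.2 FPKM in untreated libraries (-0.22 ± 0.04 SE, adjusted p = 0.0046). Its close relative KIF13B had a log2 fold change of 0.23 (adjusted p = 0.0138), just lost without phosphoramidon replicate 2 (0.05001). KIF16B, a motor of early endosomes, had 0.26 (adjusted p = 0.0390), and its call was lost without each library in turn except phosphoramidon replicate 1 (adjusted p from 0.0719 to 0.137). The KIF16B call was also lost without a filter on low genes (0.104). KIF1A, the neuronal member, was not tested, at 0.0173 FPKM in phosphoramidon and 0.0199 FPKM in untreated cells.

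Among the minus-end motors outside mitosis, KIFC2 averaged 2.03 ± 0.167 FPKM in phosphoramidon and 1.37 ± 0.165 FPKM in untreated libraries (SD, n = 3 each; 0.47 ± 0.11 SE, adjusted p = 0.0112). FOXH1 overlaps 17.8% of its exon bases at 0.0382 FPKM in phosphoramidon and 0.00567 FPKM in untreated cells. KIFC3, known from the adherens junctions of epithelia, averaged 11.2 ± 0.620 FPKM in phosphoramidon and 11.4 ± 0.877 FPKM in untreated libraries (-0.09 ± 0.06 SE, adjusted p = 0.30).

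**Figure D3:**
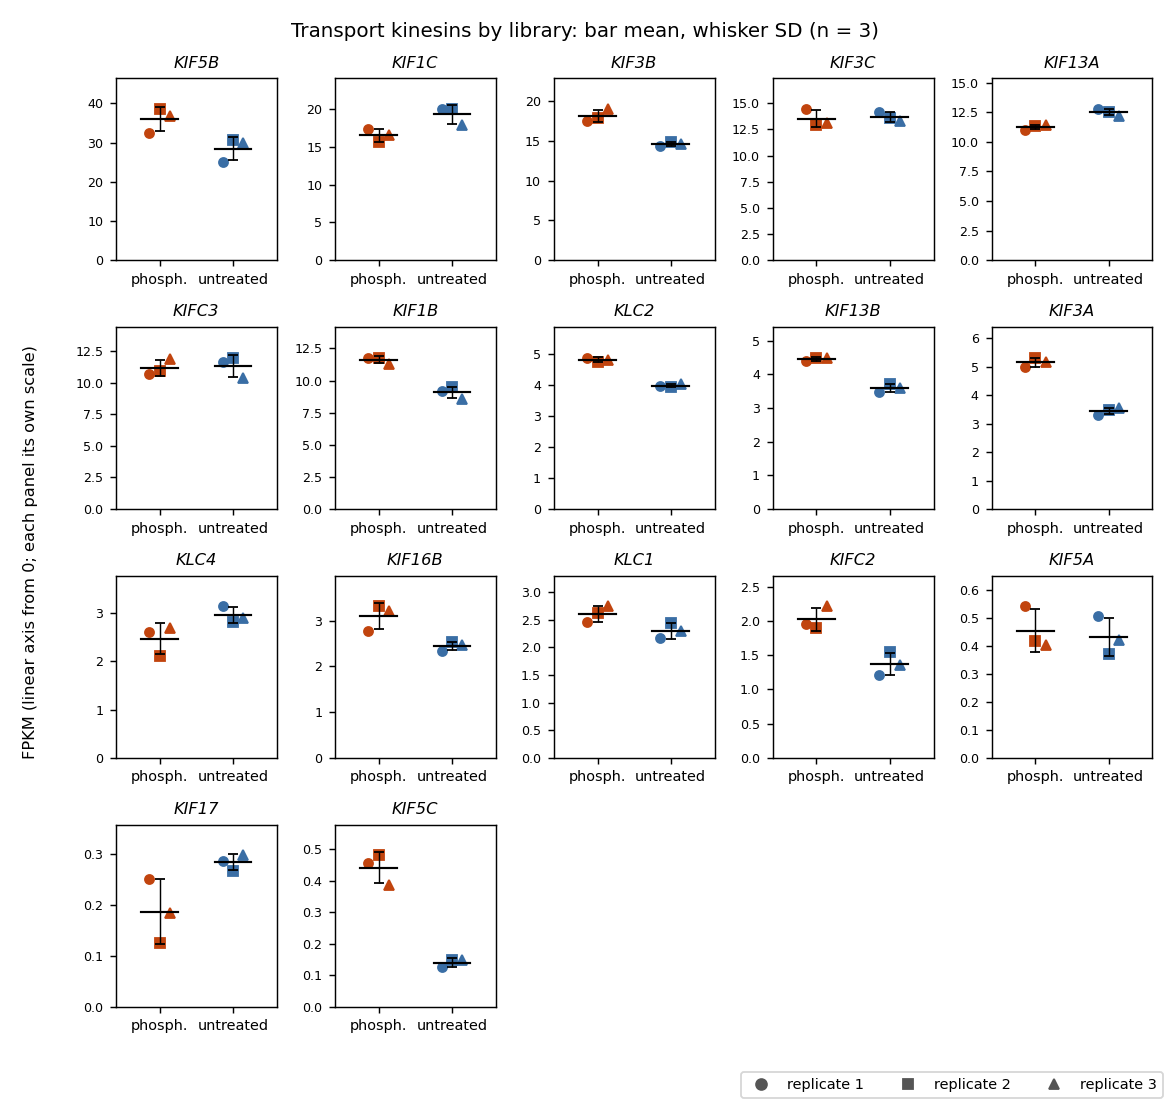
FPKM of the 17 tested transport kinesins by library, drawn as for the mitotic kinesins, in the order of their untreated mean. KIF5C lies at 0.387 to 0.482 FPKM in phosphoramidon and 0.124 to 0.148 FPKM in untreated libraries, KIF1C, KIF13A, KLC4 and KIF17 lie lower in treated libraries, and the groups overlap in KIF3C, KIF5A and KIFC3.

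In the remaining class of 13 kinesins, 2 of the 10 tested were higher and 3 lower, near the 15.7% and 18.0% of all tested genes, and the groups did not overlap in 7, against 49.7% of all tested genes. KIF24 (chr9:34252381-34311371), a centriolar kinesin-13 that holds back cilium formation, had 2.54, 2.56 and 2.60 FPKM in phosphoramidon libraries, against 1.63, 1.80 and 1.78 FPKM in untreated libraries (0.47 ± 0.08 SE, adjusted p = 0.0023). KIF26A (chr14:104138723-104180894), a kinesin-11 without motor activity, had 0.135, 0.154 and 0.151 FPKM in phosphoramidon libraries, against 0.0756, 0.0731 and 0.0239 FPKM in untreated libraries. These values rest on 17, 26 and 20 fragments in phosphoramidon and 12, 12 and 4 fragments in untreated libraries, and KIF26A reached the described minimum through the treated group alone. Its call (0.63 ± 0.19 SE, adjusted p = 0.0296) was lost without any 1 phosphoramidon replicate (adjusted p from 0.0503 to 0.0757), without untreated replicate 3 (0.078) and without a filter on low genes (0.254), and its size ran from 0.11 with a pseudocount of 1 to 1.41 with voom.

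KIF12 (chr9:114086126-114099291), a kinesin of kidney and liver epithelia, had 2.41, 2.46 and 3.28 FPKM in phosphoramidon libraries, against 3.80, 5.11 and 4.99 FPKM in untreated libraries. The groups did not overlap, and the change of -0.82 ± 0.14 SE was the lowest of all kinesins (adjusted p = 0.0029). KIF26B, the relative of KIF26A, averaged 1.76 ± 0.0236 FPKM in phosphoramidon and 2.61 ± 0.0693 FPKM in untreated libraries (-0.61 ± 0.08 SE, adjusted p = 5.25e-04). KIF21B, which restrains microtubule growth, averaged 2.43 ± 0.0790 FPKM in phosphoramidon and 2.91 ± 0.149 FPKM in untreated libraries (-0.32 ± 0.07 SE, adjusted p = 0.0108). KIF21A, the closest relative of KIF21B, had 0.05 (95% interval -0.20 to 0.31).

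The other tested members missed the test. KIF2A, a kinesin-13 of interphase and spindle microtubules, was abundant at 12.5 ± 1.17 FPKM in phosphoramidon and 12.4 ± 0.993 FPKM in untreated libraries (-0.06, 95% interval -0.23 to 0.11). IPO11 overlaps 8.965% of the exon bases of KIF2A on the same strand, at 5.641 FPKM in phosphoramidon and 5.135 FPKM in untreated cells. KIF7, a regulator of Hedgehog signalling at the cilium tip, had 0.13 (adjusted p = 0.30), with TICRR, at 4.76 FPKM in phosphoramidon and 2.97 FPKM in untreated cells, over 11.8% of its exon bases. KIF27, the closest relative of KIF7, had 0.33 (adjusted p = 0.0851) and passed with voom (0.0133) and with a filter of 50 fragments (0.0392). In KIF7 and KIF27 every treated library lay above every untreated one, a pattern of 31.0% of all tested genes. KIF9 of motile cilia had -0.31 (adjusted p = 0.19), with its antisense gene over 14.9% of its exon bases. KIF6 had at most 0.0406 FPKM in any library and was not tested, and KIF19 and KIF25 were at 0 in all 6 libraries.

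**Figure D4:**
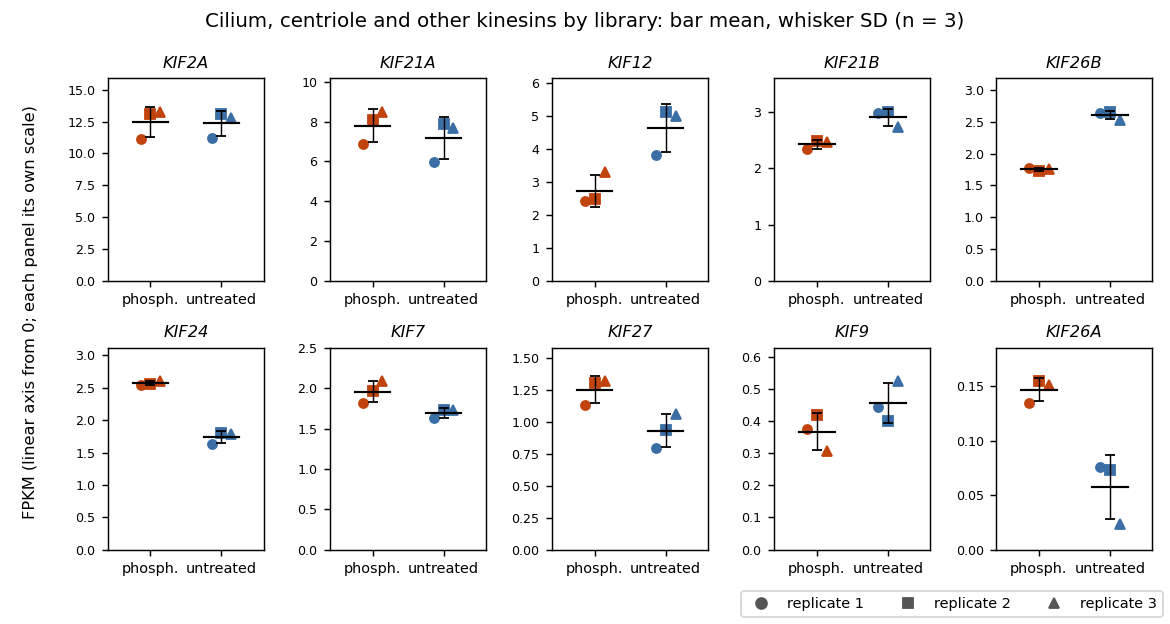
FPKM of the 10 tested kinesins outside the mitotic and transport classes by library, drawn as for the mitotic kinesins. KIF24 (2.54 to 2.60 FPKM in phosphoramidon, 1.63 to 1.80 FPKM in untreated) and KIF26A lie higher in treated libraries, KIF12, KIF21B and KIF26B lower, and KIF2A, KIF9 and KIF21A overlap. KIF7 and KIF27 lie higher in treated libraries without a call.

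The proteins that work with each class were followed as lists, to be read against 15.7% of all tested genes higher and 18.0% lower. Of 16 partners of mitotic kinesins, 11 were higher and 0 lower, with a median of 0.48. CDCA8 (borealin, 0.56), AURKA (the Aurora A kinase, 0.47), KNSTRN (a kinetochore and spindle protein, 0.56) and RACGAP1 (the centralspindlin partner of KIF23, 0.48) had the lowest p (adjusted p from 3.7e-05 to 6.0e-05). RACGAP1 had 25.2, 24.6 and 25.8 FPKM in phosphoramidon libraries, against 16.8, 17.5 and 17.3 FPKM in untreated libraries, so motor and partner of centralspindlin were both higher. CENPE, a centromeric kinesin by structure that the naming rule does not take, averaged 5.59 ± 1.87 FPKM in phosphoramidon and 3.12 ± 0.892 FPKM in untreated libraries and missed the test (0.74 ± 0.29 SE, adjusted p = 0.0910).

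Of 20 tested adaptors and partners of transport kinesins, 6 were higher and 2 lower, with a median of 0.07, where 15.7% of all tested genes were higher and 18.0% lower. The kinesin-1 adaptors SPAG9 (0.45, adjusted p = 7.5e-05) and TRAK2 (0.41, adjusted p = 4.65e-04) and the adaptor BICDL1 (0.39, adjusted p = 0.0011) were higher, and the scaffold MAPK8IP2 was lower (-0.61, adjusted p = 1.7e-04). Dynein and dynactin, which drive transport the opposite way, had 6 higher and 4 lower of 27 tested with a median of -0.02, near the shares of all tested genes. Among them DYNLL2 (0.34), BICD1 (0.42) and DYNC1LI2 (0.23) were higher and ACTR1B (-0.29) lower. Tubulins, the tracks, had 4 higher and 2 lower of 14, against the same 15.7% and 18.0%. The beta-tubulin TUBB4B averaged 318 ± 8.38 FPKM in phosphoramidon and 218 ± 10.1 FPKM in untreated libraries (0.48), TUBG1 of the nucleating ring rose by 0.31, and TUBB4A (-0.76) and TUBA4A (-0.62) fell.

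Markers of G2 and M phase moved with the mitotic class, and their part in the result was not tested. Of 16 G2/M markers, none of them a kinesin, 14 were higher and 0 lower with a median of 0.66, and they summed to 619 to 688 FPKM in phosphoramidon and 387 to 416 FPKM in untreated libraries. Of 16 S phase markers, 7 were higher and 2 lower with a median of 0.09, against 15.7% and 18.0% of all tested genes. They summed to 716 to 735 FPKM in phosphoramidon and 623 to 629 FPKM in untreated libraries.

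**Figure D5:**
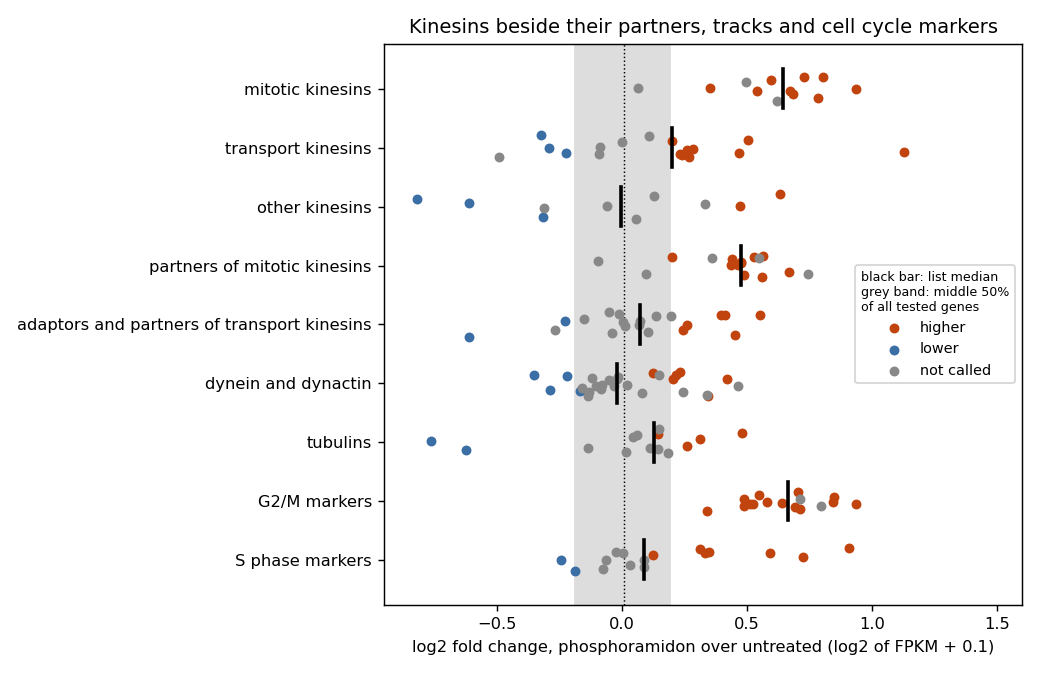
Log2 fold change, phosphoramidon over untreated, of each tested gene in the 3 kinesin classes and 6 lists, with black bars for list medians and a grey band for the middle 50% of all tested genes (-0.19 to 0.19). The medians are 0.64 for mitotic kinesins, 0.48 for their partners and 0.66 for G2/M markers, against 0.20 for transport kinesins, 0.07 for their adaptors and -0.02 for dynein and dynactin.

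Replicate 1 was the lowest library of both groups in 18 of the 39 kinesins (46.2%), 6 in each class, and in 19.4% of all tested genes. The median GC content of the longest transcript was 41.8% in those 18 kinesins and 55.5% in the other 21, against 47.9% over all tested genes. It was 41.45% in all tested genes that were lowest in replicate 1 of both groups, so the low GC content was not particular to kinesins. With the trend on GC content removed from each library, 10 mitotic kinesins were higher and 0 lower, with a median of 0.65. In that setting 9 transport kinesins were higher and 2 lower, with a median of 0.22. Over all tested genes 2625 were then higher and 2878 lower, against 2529 and 2904 as reported.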

How the data were processed

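The deposited files give FPKM per gene for each library, computed by the authors. Per the submitters' processing notes, the build was GRCh38 and the tools included HISAT2 2.1.0, featureCounts 1.6.0, Trimmomatic 0.38 and DESeq2 1.22.1, besides FastQC, MultiQC and CASAVA, their roles and order unstated, and the use of strand is not given in the sources used here. Symbols were looked up by Ensembl ID (37892 of 38126 matched), and coordinates are those of GENCODE 29 (GRCh38).

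Each value times the gene's length, divided by what 1 fragment is worth in that library, gave recovered fragments. Of the genes above 0, 79.2% were whole within 0.05 at the GENCODE 29 exon length. A search for a length that made the others whole raised this to 99.5%. The rest were rounded, and the 153 genes without an annotated length were set to 0 fragments. Of the 45 kinesins, 23 were whole at the annotated length, and KIF5C was not among them. The test took the 16145 genes that reached 10 recovered fragments in 3 or more libraries. FPKM was divided by TMM factors (1.01 to 1.04 in phosphoramidon and 0.964 to 0.990 in untreated libraries), and log2(FPKM + 0.1) was fitted on the group with limma 3.58.1 (R 4.3.3), with a trended robust prior and Benjamini-Hochberg adjustment over all tested genes at 0.05. Limma's treat tested a change beyond 1.5-fold. Fold changes are on this log2 scale and understate those of low genes, while printed FPKM are the deposited values. Overlap of the groups was also judged on the deposited values, without the TMM factors. The procedure was tested on simulated counts with a shared dispersion and with no normalisation difference, replicate effect or GC effect. That simulation cannot show how such effects bear on the calls here. Replicates differed by more than counting noise (chi-square per degree of freedom from 3.21 to 7.48), so none was counted as a duplicate.

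Members, classes and lists were chosen with earlier results of these data known. Library values are given for the 6 called mitotic and 6 called transport kinesins of lowest p, the highest and lowest change of each class, and members called against their class median. KIF11, the library values of RACGAP1, and genes given as mean ± SD were picked beyond that rule, after their values were seen. Up to 4 called members of lowest p are named per partner list.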

Additional observations from a re-analysis of the deposited data

How the results depend on the processing

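The procedure was repeated under 15 alternatives, 14 planned and 1, the removed GC trend, chosen after seeing the data. Over all kinesins and alternatives, 530 of 583 gene values kept their direction and side of the threshold, 31 lost the call, 10 gained it and 12 changed sign, all 12 in genes without a call. Without a filter on low genes, 1540 genes were higher, 63 passed 1.5-fold, 0 of them kinesins, and 1 kinesin outside the mitotic and transport classes was higher. With a pseudocount of 1, 69 genes and 0 kinesins passed 1.5-fold, and the medians were 0.59 for mitotic and 0.16 for transport kinesins. As deposited, without TMM factors, 3650 genes were higher and 2168 lower (62.7% of calls higher, against 46.5%), the median of all genes was 0.07, those of mitotic and transport kinesins 0.72 and 0.27, and 2 kinesins passed 1.5-fold. Voom on recovered fragments gave 272 genes and 2 kinesins past 1.5-fold, a filter of 50 fragments 2 kinesins, and a constant prior 0. The median of transport kinesins was 0.22 with the GC trend removed. The causes of these shifts were not tested.

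With 1 library left out, 9 to 11 mitotic, 5 to 8 transport and 1 to 2 remaining kinesins were higher. Over all tested genes 1756 to 2160 were then higher, against 2529 with all libraries. In these fits 0 kinesins passed 1.5-fold, and the mitotic median ran from 0.61 to 0.70. Estimates of genes without a call that changed sign ran from -0.075 to 0.21 for KIF18A, -0.066 to 0.13 for KIF21A, -0.12 to 0.011 for KIF2A and -0.12 to 0.10 for KIF5A. KIF2A (0.012) and KIF5A (0.058) also changed sign as deposited, and KIF18A (-0.00098), KIF5A (0.0078) and KIFC3 (0.0011) with the GC trend removed.

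Over all tested genes, deviations of same-numbered replicates correlated at 0.112, -0.0202 and -0.0134, so the numbers were not taken to pair libraries. Not every library correlated best with its own number, though the replicate 1 libraries of the 2 groups did (0.112). Across the 39 tested kinesins alone, the replicate 1 deviations of the 2 groups correlated at 0.62, so a shared replicate 1 effect on these genes is not excluded. With the replicate block, 11 mitotic kinesins were higher, KIF14 (adjusted p = 0.0033) and KIF20B (0.0018) among them, and the other class counts were 9 higher and 3 lower for transport and 2 higher and 3 lower for the remaining kinesins, with 2561 genes higher and 2891 lower in all. Depth limits KIF26A, KIF17 and KIF5C, which rest on few fragments.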
